A study of Mus musculus with 16 samples.

Results

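The nuclear-encoded subunits of the mitochondrial respiratory chain were followed in mouse skin wounds. Members were chosen by gene name alone: symbols of the Nduf a, b, c, s and v series (complex I), Sdha to Sdhd (complex II), symbols beginning with Uqcr (complex III), Cox4 to Cox8 (complex IV) and symbols beginning with Atp5 (complex V, the ATP synthase). On the array 84 genes met this rule, out of 20832 genes with a named probe: 37 in complex I, 4 in complex II, 8 in complex III, 18 in complex IV and 17 in complex V. The rule used no measured value. One probe stood for each gene, the brightest on average over the 16 arrays.

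The wounds were 2 circular full-thickness wounds of 4 mm on the back of female mice, cut through the skin including its thin muscle layer, the panniculus carnosus. RNA came from whole-wound homogenate with the surrounding skin, so fewer cells of a type and less RNA per cell cannot be told apart. The 4 groups were wild type (WT) C57BL/6J mice aged 10 to 12 weeks, db/db mice, db/db + estrogen mice and db/db + vehicle mice. All 3 db/db groups were 10 weeks old and of the strain C57BLKS/J Iar-+Lepr db/+Lepr db, which carries the leptin receptor mutation on both chromosomes, a model of type 2 diabetes with obesity. Wounds of the db/db + estrogen group were coated daily with sesame oil that carried estradiol benzoate (0.75 μg/g/day), those of the db/db + vehicle group with the oil alone, and those of the WT and db/db groups were left untreated. WT and db/db mice differed in strain as well as in genotype, and these cannot be told apart. Each group had 2 one-colour arrays on day 7 and 2 on day 14. The days used here are those of the sample labels. The study's own account gives them the other way round, so the sign of any difference between days is not settled. The labels do not say whether replicates were separate mice, and p-values measure only the spread between arrays.

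The respiratory chain sits in the inner mitochondrial membrane. Complexes I and II take electrons from NADH and succinate, complex III passes them to cytochrome c, complex IV (cytochrome c oxidase) hands them to oxygen, and complex V uses the resulting proton gradient to make ATP. Most subunits are made in nearly every cell from nuclear genes. A few complex IV subunits come in pairs, with a form for heart and skeletal muscle (Cox6a2, Cox7a1 and Cox8b) and a form found in most tissues (Cox6a1, Cox7a2 and Cox8a). Cox7a1 and Cox8b are also known from brown fat. Other alternative forms are Cox4i2 and Ndufa4l2, known to rise in low oxygen, and Cox6b2, Cox7b2 and Cox8c, known from testis. Ndufa4 was first named as a complex I subunit and is now placed with complex IV.

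Start regions of some of the muscle and general forms are shown because these pairs carry the widest contrast in the results below. They are RefSeq windows of GRCm38.p6 that run from 250 bases before to 50 bases after the start of the gene, printed 5′ to 3′ on the strand of the gene. Capitals mark matches, on either strand, to the E-box CANNTG, the NRF1 palindrome GCGCANGCGC, the ETS sequence CCGGAAG or the YY1 sequence AAGATGGC. None of these 4 patterns overlapped another in the windows shown. Cox7a1 (chr7:30183921-30184220, + strand) and Cox8b (chr7:140900397-140900696, − strand) are muscle forms. Cox6a1 (chr5:115348909-115349208, − strand) and Cox8a (chr19:7217567-7217866, − strand) are general forms.
Cox7a1: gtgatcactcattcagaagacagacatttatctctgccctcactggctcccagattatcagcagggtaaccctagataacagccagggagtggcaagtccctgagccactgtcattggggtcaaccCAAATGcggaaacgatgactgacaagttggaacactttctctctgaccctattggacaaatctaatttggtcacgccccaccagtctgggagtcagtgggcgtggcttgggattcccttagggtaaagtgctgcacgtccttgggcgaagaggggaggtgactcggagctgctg
Cox8b: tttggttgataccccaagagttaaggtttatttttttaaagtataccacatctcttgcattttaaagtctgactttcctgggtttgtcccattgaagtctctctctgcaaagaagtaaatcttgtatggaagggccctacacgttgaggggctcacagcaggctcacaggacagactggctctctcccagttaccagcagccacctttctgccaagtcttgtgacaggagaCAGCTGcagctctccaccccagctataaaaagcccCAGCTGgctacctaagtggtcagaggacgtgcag
Cox6a1: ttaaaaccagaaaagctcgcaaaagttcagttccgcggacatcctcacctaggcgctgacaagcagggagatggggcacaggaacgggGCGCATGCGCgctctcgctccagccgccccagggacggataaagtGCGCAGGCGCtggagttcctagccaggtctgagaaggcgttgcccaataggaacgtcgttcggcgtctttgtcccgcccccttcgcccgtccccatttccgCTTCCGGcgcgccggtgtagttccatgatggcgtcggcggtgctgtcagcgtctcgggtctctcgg
Cox8a: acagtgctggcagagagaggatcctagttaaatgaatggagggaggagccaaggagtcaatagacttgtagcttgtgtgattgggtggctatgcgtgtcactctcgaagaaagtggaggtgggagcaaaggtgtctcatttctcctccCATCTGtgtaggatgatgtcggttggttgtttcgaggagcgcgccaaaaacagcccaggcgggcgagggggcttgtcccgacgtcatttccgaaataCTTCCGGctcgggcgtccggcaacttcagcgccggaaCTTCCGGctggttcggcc
The Cox7a1 window held 1 E-box and the Cox8b window 2, and neither held an NRF1, ETS or YY1 match. The Cox6a1 window held 2 NRF1 matches and 1 ETS match, with no E-box. The Cox8a window held 2 ETS matches and 1 E-box. The window of Cox7a2, the general counterpart of Cox7a1, is not printed. Like that of Cox7a1, it held 1 E-box and no NRF1, ETS or YY1 match, so the matches did not separate that pair.

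RefSeq windows were given for 68 of the 84 genes, in 73 windows. Windows for Cox6a2, Cox4i1, Cox4i2 and Ndufa4l2 were not among them. NRF1 is a transcription factor known to act on many genes for mitochondrial proteins. Its palindrome stood in 18 of the 73 windows (24.7%), against 4.6% of all 32851 windows of that length. The ETS sequence stood in 23.3% of the subunit windows and in 8.86% of all windows, and the YY1 sequence in 13.7% and 2.75%. The sequence TCAAGGTCA, bound by estrogen-related receptors, was found in 2.74% and 0.423%. E-boxes were about as common in the subunit windows (67.1%) as in all windows (72.3%). The ACGTG core that low-oxygen factors bind, which an E-box of the form CACGTG contains, stood in 24.7% and 19.6%, and the MEF2 sequence CTANNNNTAG in 1.37% and 3.69%. A match describes the letters in the window and is not a measurement of binding.

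Of the 84 genes, 82 were well above background on all 16 arrays. The other two, Cox7b2 and Cox8c, were well above background on no array and were not tested. Levels are log2 values relative to the 75th percentile of the array, so that 0 is the level of that percentile. Between 71.1% and 79.6% of spots were well above background on each array, and the number of arrays limits the precision. Arrays of day 7 and day 14 were scanned on separate days, and the replicates of day 7 lay on separate slides.

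The subunits outside the muscle forms were among the steadier transcripts of these wounds. For 79 genes, the SD between replicates, pooled over the 8 groups, ran from 0.0813 to 0.417 on the log2 scale, with a median of 0.158. The median over 25909 probes well above background on all arrays was 0.223, and 69 of the 79 genes lay under it. Over all 16 arrays the median gene ranged 1.62-fold from its lowest to its highest array, and 76 of the 79 ranged less than 2-fold. The exceptions were Ndufa4l2 (3.52-fold), Atp5h (2.15-fold), a stalk subunit of the ATP synthase, and Sdhb (2.1-fold), the iron-sulfur subunit of complex II. Cox8a was the narrowest, at 1.27-fold. The 3 muscle forms were at the other end, with SDs of 1.14 for Cox7a1, 1.24 for Cox6a2 and 1.43 for Cox8b, larger than the SD of 99.2%, 99.5% and 99.8% of those probes.

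**Figure D1:**
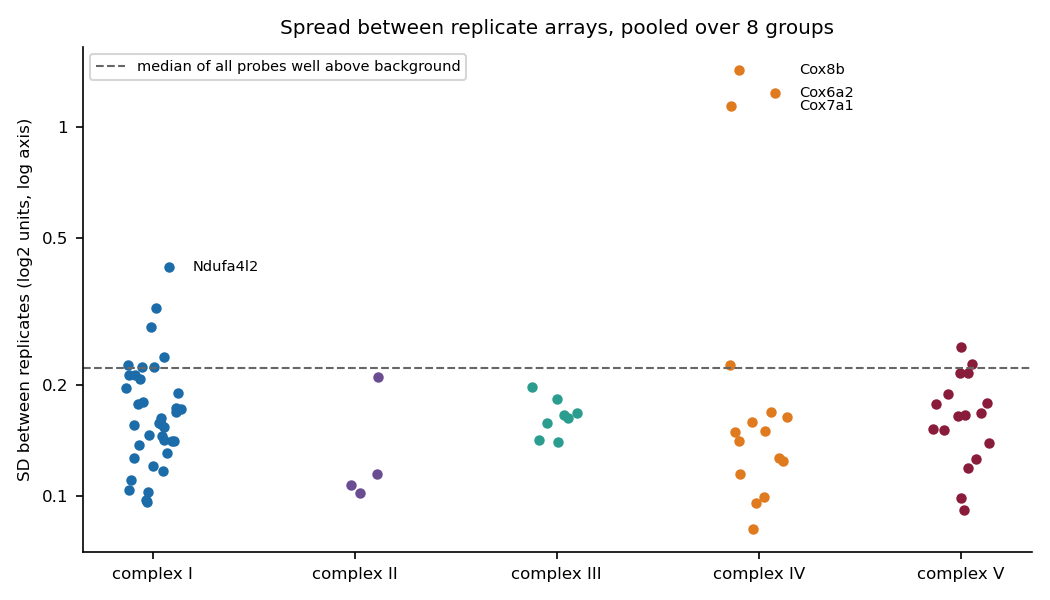
SD between replicate arrays of each of 82 subunit genes, pooled over 8 groups, in log2 units on a log axis, by complex (1 point a gene). The dashed line is the median of 25909 probes well above background on all arrays (0.223), and the 3 muscle forms of complex IV lie at 1.14 to 1.43.

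In none of the 8 comparisons did the median log2 fold change of the 79 general subunits go beyond 0.19. In the plot of each complex by array, the array medians of complexes I to V, each gene taken relative to its own mean over the 16 arrays, stayed between -0.21 and 0.43. The highest values of all 5 complexes were on the same array, db/db + estrogen day 14 replicate 2, where the medians were 0.38 for complex I, 0.43 for complex II, 0.36 for complex III, 0.20 for the general subunits of complex IV and 0.35 for complex V. On replicate 1 of that group they were -0.07, 0.12, -0.11, 0.05 and -0.04. The lowest median was -0.21, for complex III on WT day 14 replicate 1, where complex I was at -0.20.

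**Figure D2:**
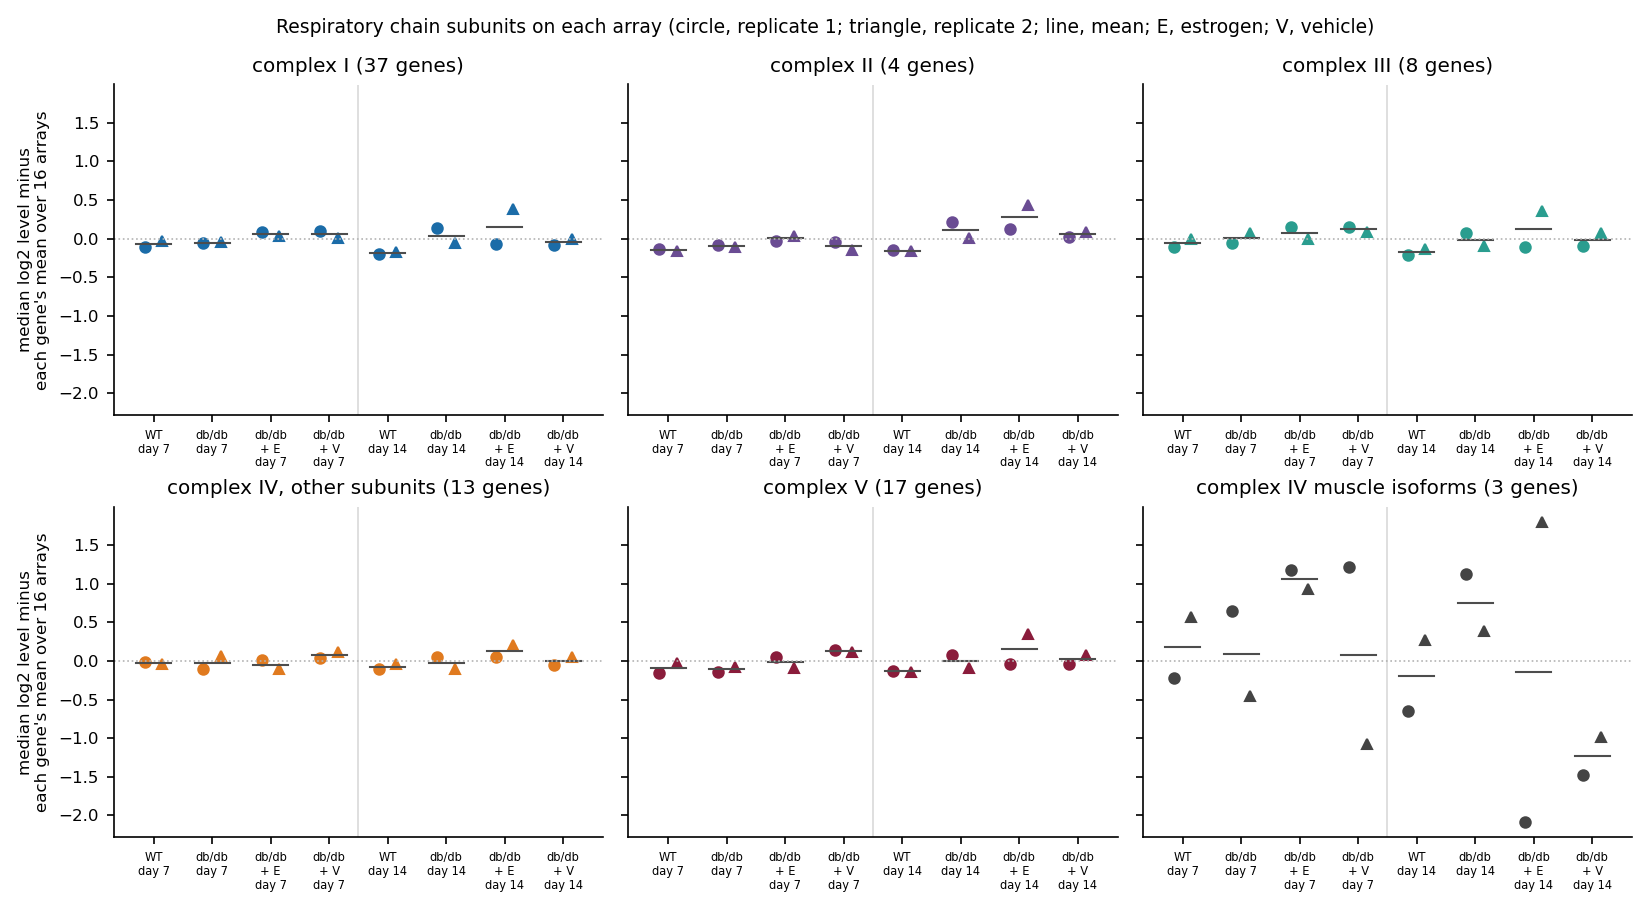
Median level of each complex on each of the 16 arrays, in log2 units relative to each gene's mean over the arrays (circles, replicate 1; triangles, replicate 2; lines, mean of 2). Complexes I to V stay between -0.21 and 0.43, while the muscle forms of complex IV run from -2.09 to 1.80.

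In the tests a gene was called when the limma p-value was under 0.05 and the fold change over 2, the thresholds of the study's methods. A Benjamini-Hochberg adjusted p under 0.05 is given beside it. The share of all probes that met each rule is the background against which the subunit counts are read. A median fold change of the subunits is set beside the median of all probes tested, since most members moved little.

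The first question was how db/db wounds differed from WT wounds. On day 7, 41 of 79 general subunits were higher in db/db mice and 38 lower, with a median log2 fold change of 0.02 beside -0.05 over all probes. That split depended on the scaling: with quantile normalization 21 of 79 were higher (median -0.08 beside 0.04), and with centring on the array median 72 of 79 (0.22 beside 0.15). None of the 82 subunits was called, against 14.1% of all probes. None passed the adjusted threshold, against 13.2%, and 2 had an unadjusted p under 0.05, against 29.6%. Those 2, named after their values were seen, were Ndufb10, an accessory subunit of complex I, at -0.44 (SE 0.170, adjusted p = 0.119 by limma), and Atp5h at -0.53 (SE 0.231, adjusted p = 0.161 by limma). The Atp5h value is from 1 of its 2 probes, and its probes differed by up to 0.79 on the log2 scale in their deviations on 1 array. Complex medians lay between -0.03 for complex III and 0.03 for complexes II, IV and V. The extremes of each complex were Ndufa4l2 (-0.85) and Ndufs8 (0.40) in complex I, Sdhc (-0.09) and Sdhb (0.39) in complex II, Uqcrfs1 (-0.15) and Uqcr10 (0.21) in complex III, Cox4i2 (-0.35) and Cox6b1 (0.30) in complex IV, and Atp5h and Atp5md (0.25) in complex V. The 95% interval of the difference lay within 2-fold in either direction for 77 of the 79 genes, so changes beyond 2-fold were outside the interval for most subunits. The same held for 53.2% of all probes, which were not matched to the subunits for brightness.

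On day 14 most subunits were somewhat higher in db/db than in WT wounds. The typical probe was lower with the scaling used here. With centring on the array median the median of all probes was instead 0.28, and with quantile normalization it was 0.07. Of the 79 general subunits 65 were higher and 14 lower, and the median log2 fold change was 0.19 beside -0.12 over all probes. Among all probes 41.5% were higher. The shift was seen in every complex, with medians of 0.22 for complex I (34 of 37 genes higher), 0.27 for complex II (4 of 4), 0.15 for complex III (7 of 8), 0.13 for complex IV (8 of 13) and 0.14 for complex V (12 of 17). The shift was small beside what the test could call. Array medians of the 79 genes were 0.10 and -0.06 in db/db and -0.17 and -0.14 in WT wounds. Between the db/db replicates (replicate 2 minus replicate 1) the median difference was -0.18, and 1.27% of the genes were higher in replicate 2. Complex medians of that difference lay between -0.20 and -0.14. Subunits thus moved together on an array, and genes and complexes are not independent counts of the shift. No subunit was called, against 18.0% of all probes. 1 passed the adjusted threshold, against 19.6%, and 9 had an unadjusted p under 0.05, against 34.8%, all of them higher in db/db. The largest fold change among the general subunits was 1.40. Relative to all probes the subunit median was 0.31 higher. It was 0.39 higher with normexp background correction, but 0.06 with quantile normalization. Centring on the array median moves every probe of an array equally, so it cannot change this difference. These 4 arrays lay on different slides, with db/db on one slide and WT on the other, so no within-slide value exists. With slide as a fixed block, which borrows the slide difference from the treated groups, the median log2 fold change was 0.43.

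Cox4i1, the general form of subunit 4, which helps set the activity of cytochrome c oxidase, was the gene past the adjusted threshold. Its level was 5.60 and 5.46 on the WT arrays of day 14 and 6.11 and 5.92 on the db/db arrays, and the groups did not overlap. On day 7 the levels were 5.81 and 5.76 in WT and 5.89 and 6.14 in db/db wounds. The treated groups lay at 5.90 and 5.91 (estrogen) and 5.98 and 6.13 (vehicle) on day 7, and at 6.05 and 6.10 and at 5.85 and 5.83 on day 14. The 2 WT arrays of day 14 were the lowest of all 16. The log2 fold change on day 14 was 0.49 (SE 0.137, adjusted p = 0.034 by limma). The call depended on the fit: the adjusted p was 0.0603 with a replicate block, 0.113 with normexp, 0.2 with slide as a fixed block and 0.234 with only the arrays compared, and up to 0.192 when 1 array was left out. For its low-oxygen form Cox4i2 the log2 fold change was -0.35 on day 7 and 0.27 on day 14, with neither past the threshold.

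The remaining genes under the unadjusted threshold, named after their values were seen, included Ndufa6 (0.49, SE 0.188, adjusted p = 0.0977 by limma), Ndufa2 (0.44) and Ndufb7 (0.43), accessory subunits of complex I, and Sdhc (0.41), a membrane anchor of complex II. From complex V they included Atp5d (0.40), a subunit of the central stalk, and Atp5pb (0.32). Among the catalytic and core genes, Ndufs1 and Ndufv1, which hold iron-sulfur centres and the NADH site of complex I, were at 0.19 and 0.23, Sdha and Sdhb at 0.23 and 0.32, Uqcrc1 and Uqcrfs1 at 0.32 and 0.02, Cox5a and Cox5b at 0.25 and -0.15, and the ATP synthase alpha and beta subunits Atp5a1 and Atp5b at 0.23 and 0.14 on the log2 scale. None of these passed the adjusted threshold. The lowest value of each complex was Ndufa5 (-0.17), Sdhd (0.16), Uqcrb (-0.12), Cox7b (-0.18) and Atp5h (-0.20), and the highest in complex III was Uqcr10 (0.35).

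Cell type markers also differed between the same groups. On day 14, 4 of 7 macrophage markers and 3 of 8 neutrophil markers were called higher in db/db wounds. Of 7 basal keratinocyte markers 3 were called lower, while 18.0% of all probes were called in either direction. Of 11 slow muscle genes 5 were called higher, with a list median of 2.17 on the log2 scale, and none passed the adjusted threshold. No fast muscle gene of 18 was called, with a median of 0.10. The summed linear level of the macrophage markers was 62.7 and 38.7 on the WT arrays and 84.2 and 77.3 on the db/db arrays. On day 7, 6 of 7 macrophage and 6 of 8 neutrophil markers were called higher, beside 14.1% of all probes called in either direction. The summed macrophage level of day 7 was 64.4 and 39.8 in WT and 114.6 and 116.2 in db/db wounds. The summed level of the neutrophil markers on day 14 was 322.7 and 432.6 in WT and 250.4 and 278.1 in db/db wounds, and that of the basal keratinocyte markers was 349.9 and 357.1 in WT and 145.2 and 271.6 in db/db wounds. Their part in the subunit values was not tested.

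The next question was what topical estrogen and its vehicle did to db/db wounds. The comparisons below with untreated db/db mice share the same 2 db/db arrays on each day. On day 7, vehicle wounds had slightly higher levels of most subunits than untreated wounds (72 of 79 higher, median log2 fold change 0.14 beside 0.05 over all probes). All 8 genes of complex III, all 13 general genes of complex IV and all 17 genes of complex V were higher, with medians of 0.15, 0.13 and 0.22, although with quantile normalization 49 of the 79 were higher and the median was 0.06. Complex II was not shifted (median -0.04). Replicate 2 minus replicate 1, the median of the 79 genes was 0.09 in untreated and -0.04 in vehicle wounds, and genes of an array are not independent counts. 1 of the 82 subunits was called, against 4.82% of all probes. The adjusted threshold was passed by none, against 0.154%, and 3 had an unadjusted p under 0.05, against 13.6%.

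With estrogen on day 7, 56 of 79 subunits were higher than in untreated wounds, with a median of 0.08 beside 0.04. The subunit median was 0.03 above that of all probes. Centring on the array median cannot change this difference, but it moved both medians (0.00 beside -0.04, 39 of 79 higher). With quantile normalization the subunit median was 0.17 above that of all probes (0.19 beside 0.03, 70 of 79 higher). None of the 82 was called, against 9.92% of all probes. No subunit passed the adjusted threshold, against 5.84%, and 1 had an unadjusted p under 0.05, against 19.97%. That gene was Cox6b2, known from testis, at levels of -1.63 and -1.59 with estrogen and -2.04 and -2.05 without (log2 fold change 0.43, adjusted p = 0.149 by limma). Between estrogen and vehicle on day 7 the median was -0.04, with 31 of 79 higher, and it turned to 0.16 with quantile normalization. 1 subunit was called, against 8.99% of all probes. None passed the adjusted threshold, against 3.05%, and 5 had an unadjusted p under 0.05, against 20.8%. Neutrophil markers moved far more in these comparisons: all 8 were called lower with estrogen than in untreated wounds, and their summed level was 6.99 and 25.7 on the estrogen arrays beside 380.3 and 430.9 on the db/db arrays and 423.7 and 403.4 on the vehicle arrays. The sums are set by the brightest genes: 4 of the 8 were called lower with vehicle than in untreated wounds, with a list median of -2.33. That stands beside 4.82% of all probes called in either direction. With estrogen 4 of 8 were called lower than with vehicle. Of 7 basal keratinocyte markers 5 were called higher with estrogen and 2 with vehicle than in untreated wounds, and 1 with estrogen against vehicle. The part of these differences in the subunit values was not tested.

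On day 14 the estrogen group again had more subunits higher than lower against untreated db/db wounds (76 of 79, median 0.13 beside 0.05), and against vehicle (69 of 79, median 0.17 beside 0.00). Both shifts depended on replicate 2 of the estrogen group. Without it the medians were -0.10 and -0.05, and without replicate 1 they were 0.34 and 0.35. Against untreated wounds none of the 82 subunits was called, against 3.91% of all probes. The adjusted threshold was passed by none, against 0.0991%, and none had an unadjusted p under 0.05, against 8.93%. Against vehicle none was called, against 0.984%. No subunit passed the adjusted threshold, against 0.0%, and 1 had an unadjusted p under 0.05, against 5.38%. It was Ndufa3 (0.42, adjusted p = 0.873 by limma), an accessory subunit of complex I. Between vehicle and untreated wounds on day 14, 32 of 79 were higher, with a median of -0.03. None was called, against 7.51%. None passed the adjusted threshold, against 0.2%, and 2 had an unadjusted p under 0.05, against 17.5%. In each of the 8 comparisons the 95% interval lay within 2-fold for 77 or 78 of the 79 general subunits.

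**Figure D3:**
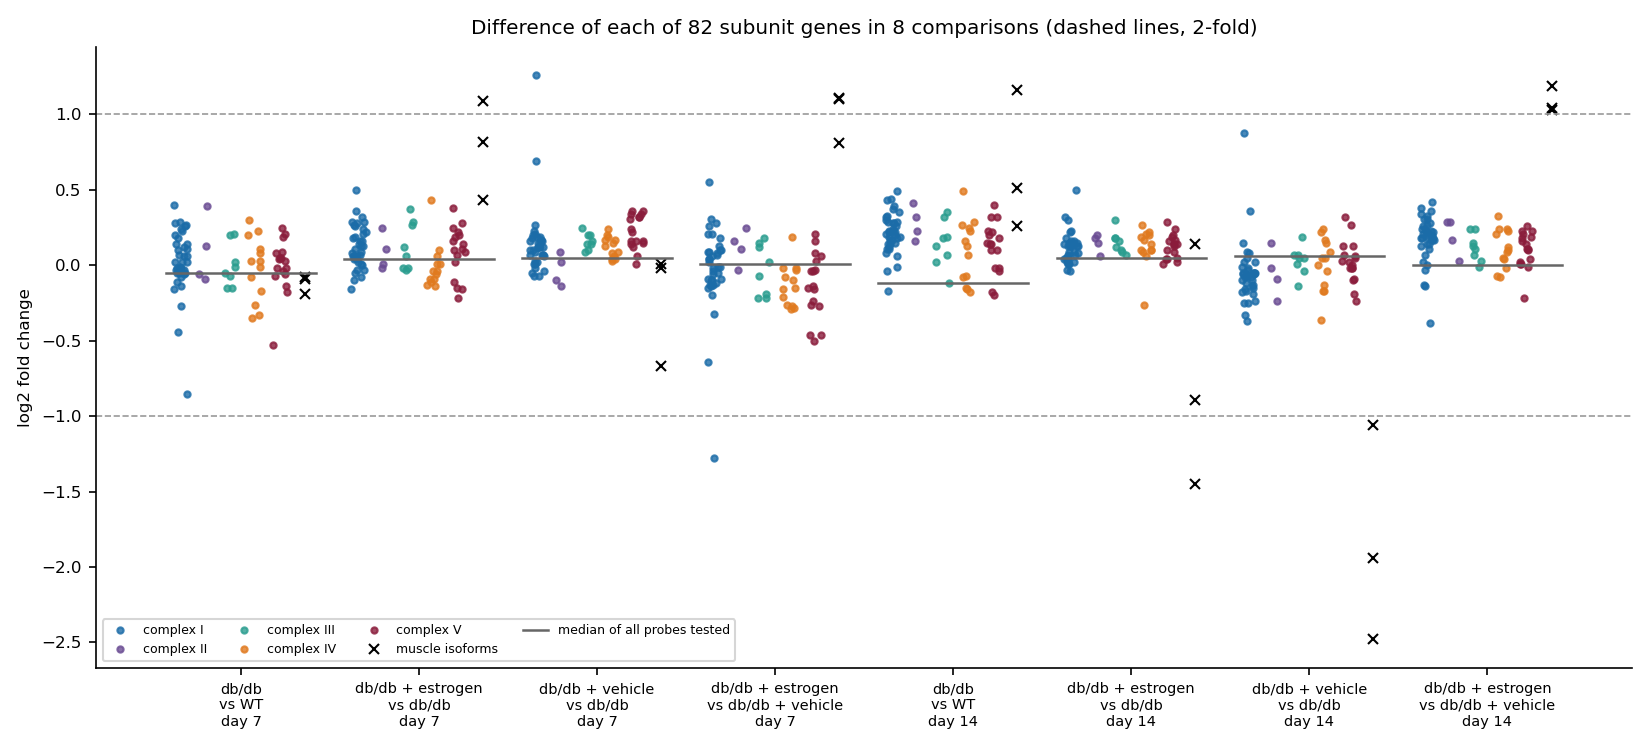
Log2 fold change of each of 82 subunit genes in 8 comparisons, by complex (points), with the 3 muscle forms of complex IV as crosses, the median of all probes tested as a line and 2-fold as dashed lines. Most general subunits lie within 0.5 of 0, and the points beyond 2-fold are Ndufa4l2 on day 7 (1.26 and -1.28) and muscle forms.

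The subunit that was called in both vehicle comparisons of day 7 was Ndufa4l2, a relative of Ndufa4 known to rise in low oxygen and to lower complex I activity. Its level was 4.21 and 4.57 on the vehicle arrays, 2.75 and 3.51 on the db/db arrays and 3.45 and 2.76 on the estrogen arrays, and the vehicle arrays did not overlap either group. The WT arrays lay between them at 3.99 and 3.96. The level was 2.39-fold higher with vehicle than in untreated wounds (log2 fold change 1.26, SE 0.389, 95% interval 0.39 to 2.13, adjusted p = 0.208 by limma). It was 2.44-fold lower with estrogen than with vehicle (log2 fold change -1.28, SE 0.389, adjusted p = 0.102 by limma). Within slides the vehicle-to-untreated difference was 1.46 and 1.06, and the estrogen-to-vehicle difference was -0.76 and -1.81. The first call was lost without db/db replicate 1 (0.88) and without vehicle replicate 2 (1.08), and the second without estrogen replicate 2 (-0.94) and without vehicle replicate 2 (-1.10). The difference between untreated db/db and WT wounds was -0.85 and was called when db/db replicate 2 was left out (-1.23).

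On day 14 Ndufa4l2 was again at its highest in vehicle wounds, at 4.56 and 4.31, beside 3.60 and 3.51 in untreated, 4.50 and 3.62 in estrogen-treated and 3.81 and 2.95 in WT wounds. The vehicle and untreated groups did not overlap, and the log2 fold change of 0.88 had an adjusted p of 0.28 by limma. With estrogen the 2 arrays were 1.85-fold apart. Over the 8 groups the order from high to low was vehicle day 14, vehicle day 7, estrogen day 14, WT day 7, db/db day 14, WT day 14, db/db day 7 and estrogen day 7, with means of 4.44, 4.39, 4.06, 3.98, 3.56, 3.38, 3.13 and 3.10. The arrays of neighbours in that order overlapped, except those of WT day 7 and db/db day 14.

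Ndufa4 itself followed a similar order over the db/db groups at a smaller scale. Its level on day 7 was 4.31 and 4.36 with vehicle, 3.57 and 3.73 without treatment, 3.74 and 3.65 with estrogen, and 3.77 and 3.57 in WT wounds. The vehicle arrays were above all others of that day. The log2 fold changes were 0.69 for vehicle against untreated (SE 0.156, adjusted p = 0.115 by limma) and -0.64 for estrogen against vehicle (SE 0.156, adjusted p = 0.0559 by limma). On day 14 both treated groups were above untreated wounds, at 4.20 and 4.28 with vehicle and 4.13 and 4.28 with estrogen beside 3.93 and 3.83, while WT arrays spread from 3.70 to 4.08. The differences from untreated wounds were 0.36 and 0.32, with adjusted p = 0.277 and 0.604 by limma. Ndufa4 and Ndufa4l2 were each measured by 1 probe.

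**Figure D4:**
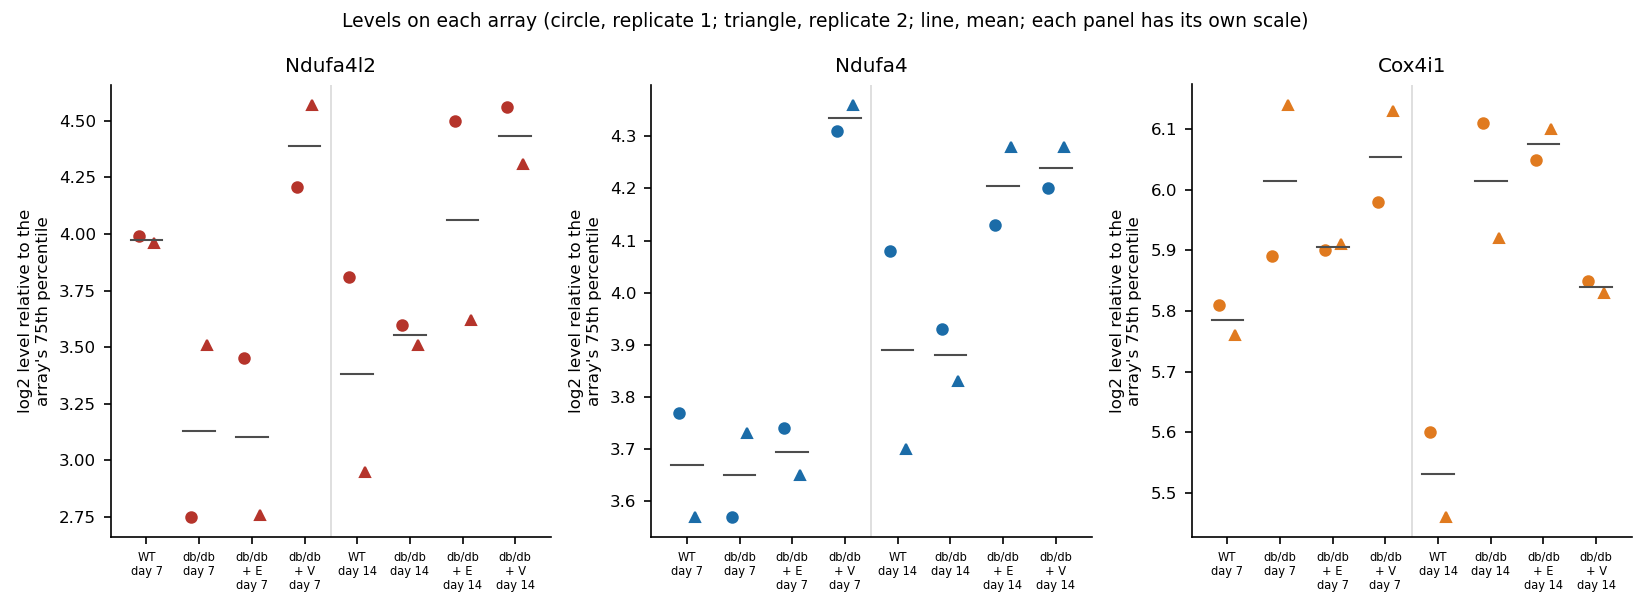
Levels of Ndufa4l2, Ndufa4 and Cox4i1 on each array, in log2 units relative to the 75th percentile of the array (circles, replicate 1; triangles, replicate 2; lines, mean of 2; each panel with its own scale). Both vehicle arrays of day 7 lie above the db/db and estrogen arrays of that day for Ndufa4l2 and Ndufa4, and the 2 WT arrays of day 14 are the lowest for Cox4i1.

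The muscle forms of complex IV had the widest spread of all the subunits measured. Cox6a2, a regulatory subunit of cytochrome c oxidase in heart and skeletal muscle, had levels of 4.76 and 5.13 in WT, 5.30 and 4.21 in db/db, 5.07 and 5.31 in estrogen-treated and 5.25 and 2.93 in vehicle-treated wounds on day 7. On day 14 the levels were 4.22 and 5.57 in WT, 5.77 and 5.04 in db/db, 2.57 and 6.46 in estrogen-treated and 3.18 and 3.76 in vehicle-treated wounds. The lowest and the highest of the 16 arrays were thus the 2 replicates of 1 group, estrogen on day 14, and they were 14.9-fold apart.

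Cox7a1 and Cox8b varied in the same way. Cox7a1 was at 0.36 and 3.63 on the 2 estrogen arrays of day 14 (9.63-fold apart) and at 3.31 and 1.23 on the vehicle arrays of day 7 (4.23-fold). It was at 1.71 and 2.97 in WT, 2.91 and 1.61 in db/db and 3.21 and 2.96 in estrogen-treated wounds on day 7, and at 1.38 and 1.82, 2.58 and 1.14, and 0.57 and 1.04 in WT, db/db and vehicle-treated wounds on day 14. Cox8b was at 0.15 and 4.94 on the estrogen arrays of day 14 (27.8-fold) and at 4.32 and 2.02 on the vehicle arrays of day 7 (4.93-fold). Its other levels were 2.88 and 3.67 in WT, 3.74 and 2.64 in db/db and 4.30 and 4.25 in estrogen-treated wounds on day 7, and 2.31 and 3.37, 4.35 and 3.64, and 1.05 and 1.99 in WT, db/db and vehicle-treated wounds on day 14. The widest spread was within groups, between replicate arrays.

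The general forms of the same 3 subunits did not share this spread. In the plot of the isoform pairs, Cox6a1 ranged 1.47-fold over the 16 arrays, Cox7a2 1.56-fold and Cox8a 1.27-fold. On the 2 estrogen arrays of day 14 their levels were 7.13 and 6.91, 3.66 and 3.70, and 5.96 and 5.86.

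**Figure D5:**
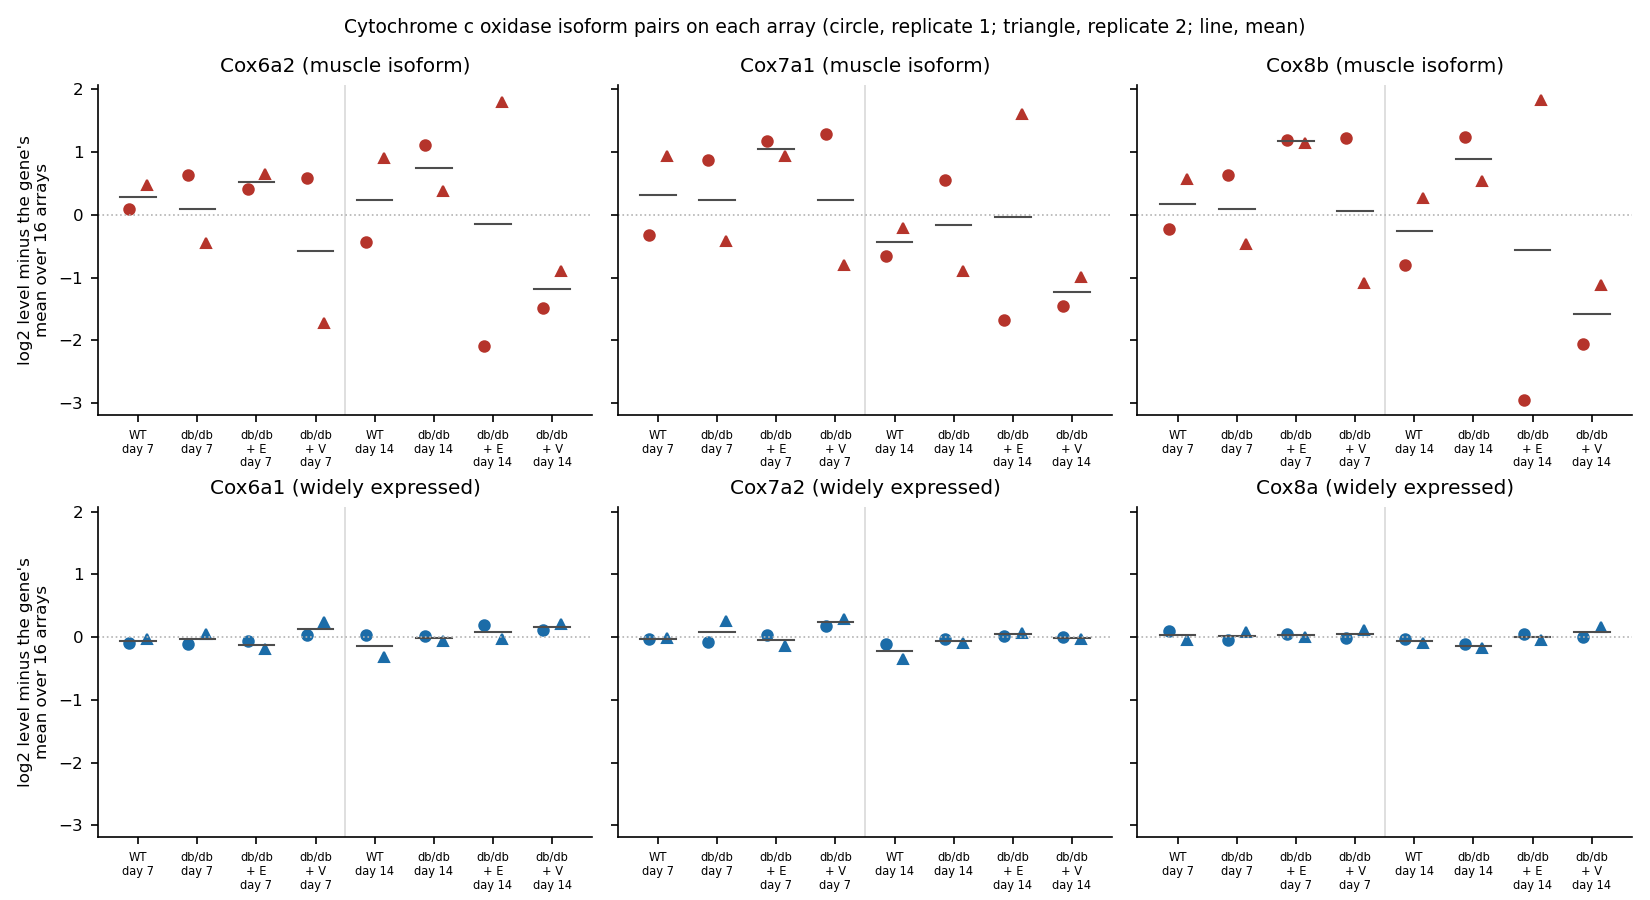
Level of the muscle form (upper row) and the general form (lower row) of 3 complex IV subunits on each array, in log2 units relative to the gene's mean over 16 arrays (circles, replicate 1; triangles, replicate 2; lines, mean of 2). The muscle forms spread over 3.27 to 4.80 units and the general forms over 0.34 to 0.64.

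Between the replicates that lay furthest apart, muscle markers moved with the muscle forms. The list held 18 fast muscle genes such as Myh4, Acta1 and Ckm, 11 slow muscle genes such as Myh7 and Myl2, and 14 genes of all striated muscle such as Ttn, Neb and Des, counting those with a probe. Replicate 2 minus replicate 1 of the estrogen group on day 14, the median difference was 3.67 for fast, 3.20 for slow and 3.73 for all striated muscle genes, beside 3.89 for the 3 muscle forms. Between the vehicle replicates of day 7 it was -1.72, -2.56 and -1.88, beside -2.30. Between groups the slow muscle genes did not always follow. For estrogen against untreated wounds on day 7 the medians were 0.97 for fast, -1.01 for slow and 0.74 for all striated muscle genes, beside 0.82. For estrogen against vehicle on day 7 they were 1.17, -0.79 and 1.02, beside 1.1. The summed linear level of the fast muscle genes was 195.7 and 1677.0 on the estrogen arrays of day 14, 1067.7 and 365.8 on the vehicle arrays of day 7, and 355.8 and 476.7 on the vehicle arrays of day 14. In the other groups it was 896.2 and 1119.1 in WT, 954.0 and 487.2 in db/db and 1287.4 and 1241.2 in estrogen-treated wounds on day 7, and 620.3 and 1439.8 in WT and 1135.1 and 695.2 in db/db wounds on day 14. All 18 fast muscle genes were well above background on all 16 arrays. Slow muscle genes split the arrays further: Myh7, the slow myosin heavy chain, was at 4.48 and 2.26 in db/db wounds on day 7 and 5.65 and 4.67 on day 14, at 5.09 on vehicle day 7 replicate 1 and 5.84 on estrogen day 14 replicate 2, and below 0 on all the other arrays. The part of muscle content in the subunit values was not tested. The brown fat marker Ucp1 was well above background on 8 of the 16 arrays, with levels from -9.15 to -4.81, and the array medians of the 8 brown adipocyte genes ran from -0.74 to 0.58.

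No muscle form was called in any of the 8 comparisons. On day 7 the median log2 fold change of the 3 was -0.09 in db/db against WT wounds, 0.82 with estrogen and -0.02 with vehicle against untreated wounds, and 1.1 for estrogen against vehicle. On day 14 that of Cox8b was 1.16 in db/db against WT wounds, -1.45 with estrogen and -2.48 with vehicle against untreated wounds, and 1.03 for estrogen against vehicle. The same values for Cox6a2 were 0.51, -0.89, -1.94 and 1.04, and for Cox7a1 0.26, 0.14, -1.06 and 1.19. For vehicle against untreated wounds on day 14 the groups did not overlap for any of the 3 genes. The share of all probes without overlap was not counted, and with 2 arrays against 2 an exact permutation test cannot go below p = 0.333. Cox6a2 and Cox8b were called in that comparison when the fit held only the 4 arrays compared (adjusted p = 0.0909 and 0.0884 by limma). They were also called with slide as a fixed block (adjusted p = 0.177 and 0.135 by limma). With slide as a fixed block Cox8b was also called on day 14 in db/db against WT wounds (4.03, adjusted p = 0.125 by limma) and with estrogen against untreated wounds (-2.89, adjusted p = 0.532 by limma). The slide difference of day 14 comes only from the treated groups. Their replicates were 27.8-fold (estrogen) and 1.92-fold (vehicle) apart for Cox8b, and 14.9-fold and 1.5-fold for Cox6a2. The calls with this block therefore rest on those replicate pairs. In the vehicle comparison 2 of 14 striated muscle genes and 4 of 11 slow muscle genes were called lower, beside 7.51% of all probes called in either direction. The fast muscle median there was -1.07. The median of the 3 muscle forms for estrogen against untreated wounds on day 14 was -0.89, and it was 1.05 without estrogen replicate 1 and -2.84 without replicate 2. Cox6a2 and Cox8b were called there without replicate 2 (-2.84 and -3.85), and all 3 forms were called for estrogen against vehicle without estrogen replicate 1 (2.99 for Cox6a2, 2.83 for Cox7a1 and 3.42 for Cox8b).

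The difference between the days of each comparison was tested in the same model. For db/db against WT, 67 of 79 general subunits had a larger value on day 14, with a median difference of 0.15 beside -0.07 over all probes. None of the 82 was called, against 9.39% of all probes. The adjusted threshold was passed by none, against 0.693%, and 2 had an unadjusted p under 0.05, against 13.7%. These were Cox4i2 (0.62, adjusted p = 0.288 by limma) and Sdhc (0.50, adjusted p = 0.327 by limma). For estrogen against untreated wounds the median difference was 0.05. None was called, against 6.27%. No subunit passed the adjusted threshold, against 0.0953%, and none had an unadjusted p under 0.05, against 10.01%. For vehicle against untreated wounds 65 of 79 were smaller on day 14, with a median of -0.19. None was called, against 2.81%. None passed the adjusted threshold, against 0.0%, and none had an unadjusted p under 0.05, against 4.99%.

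Other mitochondrial gene lists were followed beside the subunits. Of 14 electron carriers and subunits outside the name rule, 1 of 13 tested passed the adjusted threshold in db/db against WT wounds on day 7. It was Coq6, an enzyme of coenzyme Q synthesis, which was lower (-0.76, adjusted p = 0.0254 by limma) and was higher with estrogen than without (0.84, adjusted p = 0.0287 by limma). Those 2 comparisons share the db/db arrays. Of the assembly factors, which build the complexes, 43 were tested on day 7 in db/db against WT wounds, and 3 passed the adjusted threshold as higher and 1 as lower. Sco2, a copper chaperone of complex IV, was higher on both days (0.53 and 0.52, adjusted p = 0.0395 and 0.0332 by limma). No assembly factor met the 2-fold rule in either db/db against WT comparison.

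For db/db against WT wounds the lists are read against the 13.2% of all probes that passed the adjusted threshold on day 7 and the 19.6% on day 14. Among 16 genes of fatty acid oxidation 4 passed it on day 14, a share near that of all probes, and all were higher: Cpt1a (0.85), which controls entry of fatty acids into mitochondria, Acads (0.66), Hadha (0.60) and Acaa2 (0.80), with adjusted p from 0.0103 to 0.0455 by limma. The list median was 0.45. The tricarboxylic acid cycle had no gene past the adjusted threshold on day 14 (median 0.24) and 1 of 18 on day 7, Cs, citrate synthase, which was lower (-0.55, adjusted p = 0.0286 by limma). The mitochondrial ribosome, with 77 proteins tested, had 5 genes higher and 1 lower past the adjusted threshold on day 14 and none called, and its median of 0.18 was close to that of the chain. Among 21 import genes Tomm22 was called lower in db/db wounds on both days (-1.26 and -1.27, adjusted p = 0.0012 and 0.000794 by limma). Among 19 regulators of mitochondrial biogenesis 1 passed on day 14, Pprc1, a coactivator related to PGC-1, which was lower (-0.81, adjusted p = 0.00476 by limma).

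Of 22 glycolysis genes 6 were called lower with estrogen than with vehicle on day 7, beside 8.99% of all probes called, and 5 passed the adjusted threshold, beside 3.05%. The list median was -0.44 and values ran from -1.93 for Aldoc to 1.36 for Pgam2, the muscle form of phosphoglycerate mutase. In the same comparison 4 of 8 neutrophil markers were called lower, and their part in these values was not tested. Those past the adjusted threshold included Hk2 (-1.02), which starts glycolysis, Eno1 (-1.06), Pkm (-0.87) and Slc16a3, a lactate exporter (-1.61), with adjusted p from 0.0163 to 0.0402 by limma. Slc2a3, a glucose transporter of white blood cells and neurons, was 5.65-fold higher in db/db than in WT wounds on day 7 and 6.15-fold higher on day 14 (adjusted p = 0.0107 and 0.00646 by limma). Lists were compared with the chain by their counts and medians alone.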

How the data were processed

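RNA was labelled with Cy3, hybridised to Agilent mouse 4x44K arrays and read with Feature Extraction 11.0.1.1 per the labels. The intensity values are the authors' deposited scanner output, background-subtracted and not normalized between arrays. The deposited value table holds, for 34643 probes, the ratio of each signal to the 75th percentile of its array as the authors scaled it. It served as an alternative. Its medians ran from 0.139 to 0.182, and on each array 99.9% of values were within 1% of the ratio computed here. The deposited scanner flags (other columns) mark spots well above background and outliers.

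Outlier spots were left out, spots of a probe averaged and log2 signals set relative to the 75th percentile of each array's 39429 probes. Accessions gave 27427 probes a RefSeq symbol. A model of 8 groups (limma 3.58.1, R 4.3.3, 8 residual degrees of freedom) was fitted to all probes. Probes well above background on both arrays of either compared group were tested with Benjamini-Hochberg adjustment, and medians and counts were made in Python 3.11.15. The number of arrays limits the precision, and an exact permutation test of 2 arrays against 2 could not go below p = 0.333. The model fit was tested on simulated data for probes well above background on all arrays, with noise independent between probes. Scaling, averaging of spots, naming of genes, medians and list counts were not part of that test.

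The members and the gene lists were chosen with earlier results of these data known. Genes named were the alternative isoforms and their counterparts, core and catalytic subunits, called members, and the extremes of each complex in db/db against WT. Of the 84 members 62 had 1 probe, and 21 matching RefSeq symbols without a probe (18 of them pseudogenes) were not analysed here. ATP synthase inhibitor factor and mitochondrially encoded subunits were not analysed. The lists described by count were fast, slow and all striated muscle, adipocyte, keratinocyte, fibroblast, endothelium, macrophage and neutrophil markers and the mitochondrial and glycolysis lists of the report.

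Slide 1 held replicate 1 and slide 2 replicate 2 of all 4 groups of day 7. For day 14, db/db lay on slide 3 and WT on slide 4, with the treated groups on both. Each day had its own scan day, so day and scan cannot be told apart. Of 20 db/db-to-WT fold changes printed with a day in the study, 20 were found within 1% on the arrays labelled with the other day and 0 on those of the same day, and the labels were kept. Alternatives were another background correction, quantile and median scaling, filters, the value table, slide or replicate blocks, averaged probes and leaving out each array.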

Additional observations from a re-analysis of the deposited data

How the results depend on the processing

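Counts of called subunits differed from the reported ones in few settings. By the adjusted threshold at any fold they were 0 instead of 1 for vehicle against db/db and for estrogen against vehicle on day 7, and 1 instead of 0 for db/db against WT on day 14. With slide as a fixed block they were 1, 1 and 3 instead of 0 for db/db against WT, estrogen against db/db and vehicle against db/db on day 14, and 1 in each of the 3 differences between days. On day 14 that block takes the slide difference from the treated groups alone. With only the arrays compared, 2 were called for vehicle against db/db on day 14. With a replicate block the counts were as reported: 0, 0, 1 and 1 on day 7 and 0 in the 4 comparisons of day 14. On day 7 the replicate number is also the slide, but the deviations of same-numbered arrays correlated from -0.31 to 0.39 over probes on that day and from -0.45 to 0.32 on day 14, so the numbers were not taken to pair the arrays. When arrays were left out in turn, counts on day 7 ran from 0 to 1 for db/db against WT, vehicle against db/db and estrogen against vehicle. On day 14 they ran from 0 to 2 for estrogen against db/db and from 0 to 3 for estrogen against vehicle. For the differences between days they ran from 0 to 1 for db/db against WT and from 0 to 2 for estrogen against db/db. For the comparisons within a day, the array whose removal raised the count was named in the report, such as estrogen replicate 1 for estrogen against vehicle on day 14. For the differences between days it was not named.

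The median log2 fold change of the 79 general subunits moved by more than the spread of array medians between replicates (0.118) in some settings. With centring on the array median it was 0.22 for db/db against WT on day 7 and 0.59 on day 14, as the median of all probes moved from -0.05 to 0.15 and from -0.12 to 0.28. With quantile normalization it was 0.16 for estrogen against vehicle on day 7. With slide as a fixed block the day 14 medians were 0.43 for db/db against WT, 0.00 for estrogen against db/db and -0.16 for vehicle against db/db, and that of the muscle forms was 2.75 for db/db against WT. Without 1 array the day 14 medians ran from -0.10 to 0.34 for estrogen against db/db and from -0.05 to 0.35 for estrogen against vehicle, and those of the muscle forms from -2.84 to 1.05 and from -0.90 to 2.99. The cause was not tested. Of 4352 values of 34 named genes under alternatives, 0 called values changed sign, 4 calls were lost and 13 were gained, while 329 values that were not called changed sign. The only subunit called in the reported fit was Ndufa4l2, in both vehicle comparisons of day 7. The called values that could change sign or be lost were thus those of that gene alone. Settings that alter only the filter keep each fold change as it was and cannot change a sign.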

Other observations

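Ndufa4l2 was not alone in being higher with vehicle than in the other db/db wounds of day 7. The 10 genes known to respond to low oxygen given here were chosen after their values were seen, so their counts only describe that choice and carry no test. Of these, 8 had a higher mean with vehicle than in untreated wounds, beside 55.1% of all probes. All 10 had a lower mean with estrogen than with vehicle, where 50.7% of all probes were higher. Whether oxygen had a part in these values was not tested. Egln3, an oxygen-sensing hydroxylase, was at 3.60 and 2.85 with vehicle, 1.18 and 1.88 without treatment and -0.08 and -0.41 with estrogen. Vegfa, a growth factor for blood vessels, was at 2.83 and 2.12, 0.94 and 1.17, and -0.25 and 0.10. Ankrd37 was at 0.78 and 0.54, -0.52 and -0.23, and -1.36 and -1.78. On the 2 estrogen arrays of day 14, which were 1.85-fold apart in Ndufa4l2 (4.50 and 3.62), Egln3 was at 3.40 and 1.49 and Slc2a1, a glucose transporter, at 4.90 and 3.82. On day 7 Adm and P4ha1 were not higher with vehicle than in untreated wounds, with mean log2 differences of -0.05 and -0.19. Pdk1 was not lower with estrogen than in untreated wounds (0.04), and Ndufa4l2 itself hardly differed between those 2 groups (-0.03).

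On estrogen day 14 replicate 2, the array with the highest median of every complex, other mitochondrial lists also stood above their mean over the 16 arrays. The median was 0.49 for the tricarboxylic acid cycle, 0.63 for fatty acid oxidation, 0.17 for assembly factors, 0.17 for the mitochondrial ribosome and 0.12 for mitochondrial import. The same array had the highest summed level of fast muscle genes, 1677.0. On vehicle day 7 replicate 2, with a summed level of 365.8, the tricarboxylic acid cycle was at -0.26 and fatty acid oxidation at -0.07, while the general subunits were at 0.06. Other arrays differed from these. WT day 14 replicate 2, with a high summed level of 1439.8, had -0.03, -0.43 and -0.14. Vehicle day 14 replicate 1, with a low one of 355.8, had -0.05, 0.03 and -0.06. The part of muscle content in these values was not tested. Fibroblast and endothelium markers had medians from -0.31 to 0.44 and from -0.54 to 0.76 over the arrays, white adipocyte markers from -1.59 to 1.63 and suprabasal keratinocyte markers from -1.41 to 1.04.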
